A study of Mus musculus with 12 samples.

Results

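The complement genes described here encode proteins of the first component C1q (C1qa, C1qb and C1qc), the central component C3, complement factor B (Cfb), the inhibitor of the C1 proteases (Serping1) and the receptors for the fragments C3a and C5a (C3ar1 and C5ar1). These 8 genes were listed by name, and each was read from the brightest, by its average across the 12 arrays, of the probe sets that the annotation assigns to a single gene. By that rule 7 of the 8 were measured, out of 18193 genes in all. No probe set was named to C3 in the annotation used, so C3 was not analysed here.

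Complement is a cascade of plasma and tissue proteins that tags particles and cells for uptake and calls in phagocytes. C1q starts the classical pathway when it binds its target, C3 is the step at which the pathways meet, factor B drives the alternative pathway that amplifies C3 cleavage, and C1 inhibitor (the SERPING1 protein) shuts off the proteases that ride on C1q. In brain, C1q is made mainly by microglia, where it is known for marking synapses for removal.

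The study asked which genes IFN-β regulates in neurons, using cultures of mouse cerebellar granule neurons (CGNs), the small glutamatergic neurons of the cerebellum. The 4 groups were Ifnb-/- cultures given recombinant IFN-β (rIFN-β), untreated Ifnb-/- cultures, Ifnb+/+ cultures given rIFN-β, and untreated Ifnb+/+ cultures, with 3 arrays a group. All came from 7-day-old pups of the B10.RIII strain and were lysed after 3 days in culture, and treated cultures received rIFN-β at 100 U/ml for the 24 hours up to lysis. Ifnb-/- mice lack the Ifnb1 gene in every cell, the labels do not say how many pups or separate cultures gave the 3 arrays of a group, and p-values therefore measure the spread between these arrays, which may be technical.

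Values are log2 signals made by the authors with the robust multi-array average (RMA) method, so a difference of 1 is a doubling of signal. The median log2 signal of an array lay between 4.33 and 4.42. Untreated Ifnb-/- arrays were the most alike (correlation over all genes 0.997 to 0.998) and untreated Ifnb+/+ arrays the least (0.971 to 0.993). The interferon targets Cxcl10 and Ifit1 were 7.37 and 6.96 log2 higher in treated than in untreated Ifnb-/- cultures, and 7.72 and 7.00 log2 higher in treated than in untreated Ifnb+/+ cultures. Ifnb1 itself was at 2.48 to 3.06 log2 on every array, near the bottom of the range in both genotypes, so its probe set did not check the genotype labels. All 12 granule neuron markers listed were measured. The brightest, Zic1, Neurod1 and Cbln1, averaged 12.56, 12.02 and 10.87 log2 over the 12 arrays. The dimmest, Gabra6, Cbln3 and Grin2c, averaged 5.86, 4.40 and 2.73.

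The 3 C1q genes stand next to each other on mouse chromosome 4, in the order C1qb, C1qc, C1qa, and Ifnb1 lies on the same chromosome. Because they moved together in the comparisons below, the promoters available for them are shown, each as the 250 bases before the RefSeq start of the gene (build GRCm38.p6, minus strand), with matches to GAGGAA, the core recognised by the myeloid factor PU.1, in capitals. The C1qb stretch is chr4:136886201-136886450 and the C1qc stretch is chr4:136892915-136893164.
C1qb promoter: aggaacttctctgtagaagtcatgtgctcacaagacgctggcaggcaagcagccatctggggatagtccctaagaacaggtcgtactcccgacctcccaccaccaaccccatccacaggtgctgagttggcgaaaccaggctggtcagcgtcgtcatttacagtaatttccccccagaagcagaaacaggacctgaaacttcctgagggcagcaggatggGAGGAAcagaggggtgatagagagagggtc
C1qc promoter: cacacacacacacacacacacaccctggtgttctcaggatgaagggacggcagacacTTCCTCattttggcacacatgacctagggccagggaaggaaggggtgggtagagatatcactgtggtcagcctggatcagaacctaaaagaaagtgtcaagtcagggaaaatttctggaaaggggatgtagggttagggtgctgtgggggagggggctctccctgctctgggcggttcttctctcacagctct
In C1qb the match ran from 30 to 25 bases before the start on the gene's own strand. In C1qc it ran from 193 to 188 bases before the start on the opposite strand, where it reads as TTCCTC. Neither stretch held the core of the interferon-stimulated response element (GAAA, any 2 bases, then GAAA) on either strand. Among 32851 promoters of that length, 23.3% held GAGGAA and 2.98% held the response element core on one strand or the other, so a GAGGAA match is common. The C3ar1 and C5ar1 stretches held neither of these motifs. No promoter entry was found for C1qa, Cfb or Serping1.

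With rIFN-β, all 3 C1q genes fell by a little over 2-fold in Ifnb+/+ cultures, while in Ifnb-/- cultures none of them passed the test. C1qa, the A chain, measured 8.03, 7.92 and 7.41 log2 in treated Ifnb+/+ cultures, against 9.24, 8.45 and 8.84 in untreated Ifnb+/+ cultures. C1qb, the B chain, measured 7.75, 7.61 and 7.15 in treated Ifnb+/+ cultures, against 8.90, 8.37 and 8.59 in untreated ones. C1qc, the C chain, measured 6.76, 6.90 and 6.04 in treated Ifnb+/+ cultures, against 7.97, 7.47 and 7.58 in untreated ones. For each chain all 3 treated arrays lay below all 3 untreated arrays, as for 9.28% of all genes in that direction, and the third treated array was the lowest. The log2 fold changes were -1.06 ± 0.20 for C1qa (SE, adjusted p = 0.0123), -1.12 ± 0.17 for C1qb (adjusted p = 0.0033) and -1.10 ± 0.21 for C1qc (adjusted p = 0.0153), from limma fitted to the 4 groups together, with p-values adjusted by the Benjamini-Hochberg method across the 18193 genes. Across the table, 3.14% of genes were called in this comparison (1.36% lower and 1.78% higher), against 5 of the 7 complement genes (4 lower and 1 higher). The median log2 fold change was -0.84 over the 7 genes and -0.03 over all genes. The C1qb call held when any 1 array was left out. The C1qa call was lost without untreated Ifnb+/+ replicate 3 (adjusted p = 0.0575) or treated Ifnb+/+ replicate 3 (0.0532), and the C1qc call without untreated Ifnb+/+ replicate 3 (0.0549). A fit to these 2 groups of 3 arrays alone left adjusted p at 0.149 for C1qa, 0.081 for C1qb and 0.142 for C1qc.

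**Figure D1:**
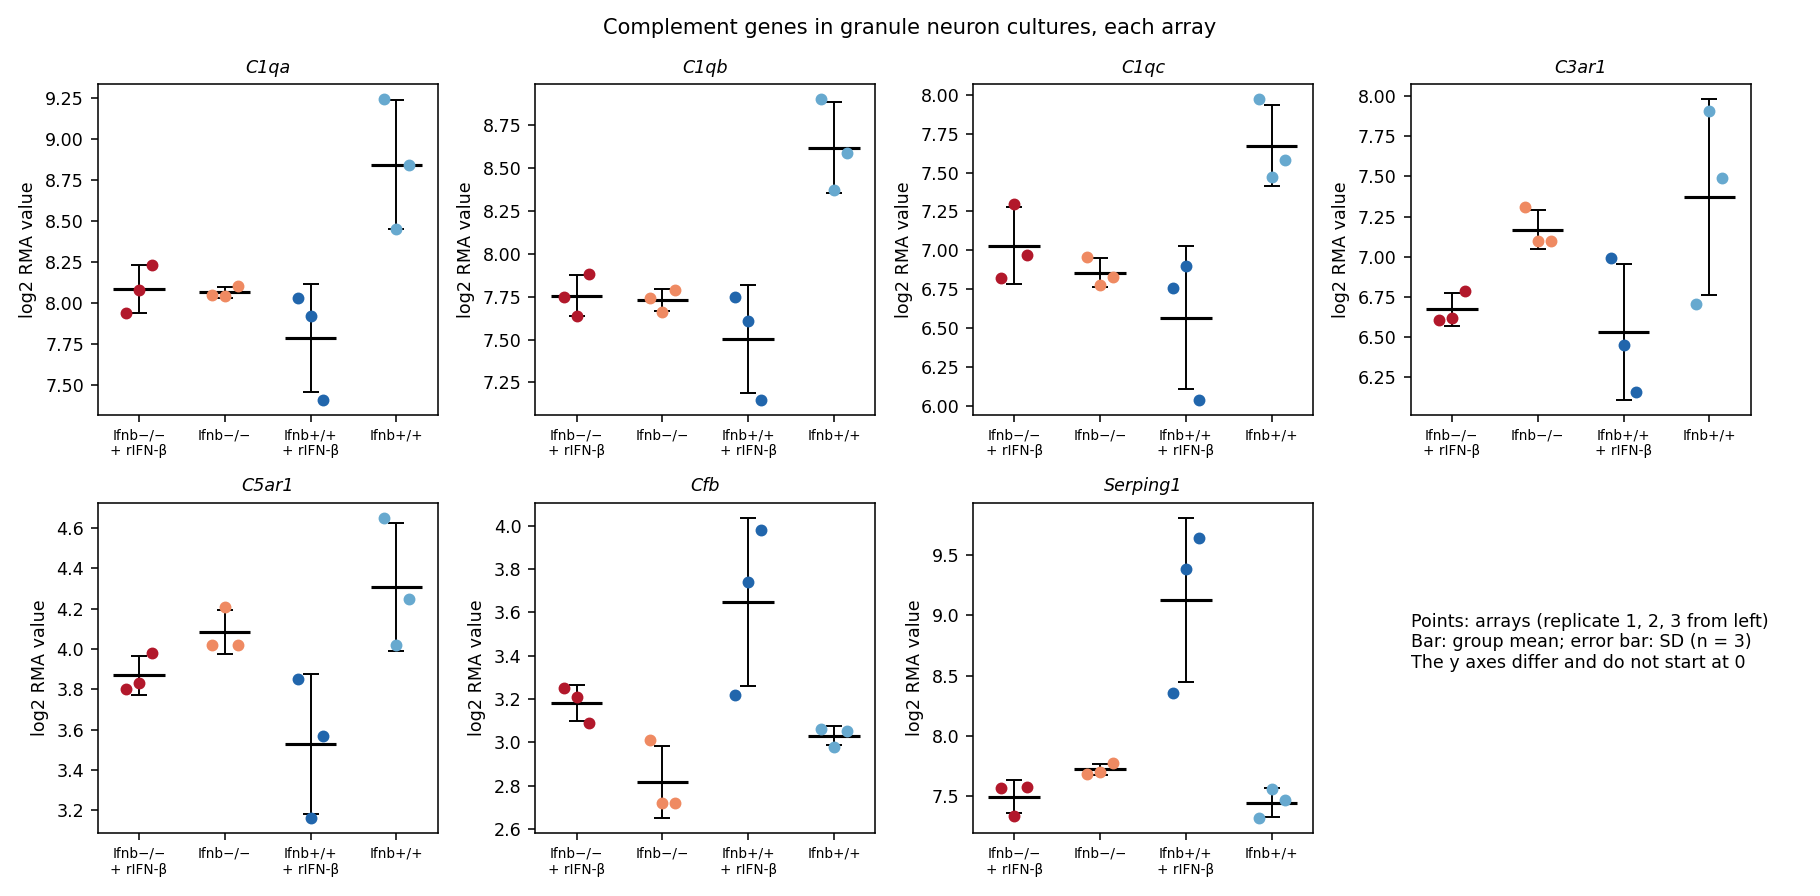
Log2 RMA signal (y axis, scales differ and do not start at 0) of 7 complement genes in each array, with groups on the x axis, points for replicates 1 to 3 from left, bars for group means and error bars for SD (n = 3). The untreated Ifnb+/+ arrays stand above the other 3 groups for C1qa, C1qb and C1qc, and the rIFN-β-treated Ifnb+/+ arrays stand above the other 3 groups for Serping1.

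Cultures of the Ifnb-/- genotype gave for the same genes log2 fold changes with rIFN-β of 0.02 for C1qa (95% interval -0.41 to 0.45), 0.03 for C1qb (-0.34 to 0.40) and 0.17 for C1qc (-0.29 to 0.64). C1qa measured 7.94, 8.08 and 8.23 log2 in treated Ifnb-/- cultures, against 8.05, 8.04 and 8.10 in untreated ones. C1qb measured 7.75, 7.64 and 7.88 in treated Ifnb-/- cultures, against 7.74, 7.66 and 7.79 in untreated ones. C1qc measured 6.82, 7.30 and 6.97 in treated Ifnb-/- cultures, against 6.96, 6.78 and 6.83 in untreated ones. The 2 groups overlapped for each chain, and each interval excluded a 2-fold fall. None of the 7 complement genes was called for rIFN-β in Ifnb-/- cultures, where 1.67% of all genes were. At an unadjusted p under 0.05 the limma fit picked 1 of the 7 (Cfb, higher with rIFN-β) and 9.16% of all genes in that direction.

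Without treatment, the C1q chains were lower in Ifnb-/- than in Ifnb+/+ cultures by log2 fold changes of -0.78 ± 0.20 for C1qa, -0.89 ± 0.17 for C1qb and -0.81 ± 0.21 for C1qc (SE), but none passed the adjusted threshold (limma, adjusted p = 0.146, 0.0736 and 0.154). C1qa averaged 8.06 ± 0.03 log2 in untreated Ifnb-/- cultures and 8.84 ± 0.39 in untreated Ifnb+/+ cultures (SD, n = 3 each). The C1qb averages were 7.73 ± 0.07 in Ifnb-/- and 8.62 ± 0.27 in Ifnb+/+ cultures, and those of C1qc 6.86 ± 0.09 and 7.67 ± 0.26. For each chain the Ifnb-/- arrays all lay below the Ifnb+/+ arrays, a separation that 18.1% of all genes showed in that direction. In this comparison 0 of the 7 complement genes were called, as were 0.115% of all genes, and 3 of the 7 (the C1q chains) and 12.8% of all genes were lower at an unadjusted p under 0.05 in the limma fit. The methods' t-test, at an unadjusted p under 0.05 and a 1.5-fold change, also picked 3 of the 7, all lower, and 1.36% of all genes in that direction. Leaving out untreated Ifnb+/+ replicate 2, the lowest of its group for each chain, gave adjusted p = 0.0158 for C1qa, 0.0149 for C1qb and 0.0247 for C1qc, but that fit called 21.1% of all genes. Leaving out treated Ifnb+/+ replicate 3 gave 0.0334 for C1qb and called 0.198% of all genes. With rIFN-β in both genotypes, the C1q genes overlapped between Ifnb-/- and Ifnb+/+ arrays, with log2 fold changes of 0.29, 0.25 and 0.46 and adjusted p of 0.988 for each chain.

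The interaction, which is the rIFN-β log2 fold change in Ifnb-/- minus that in Ifnb+/+ cultures, was 1.07 ± 0.28 for C1qa, 1.15 ± 0.24 for C1qb and 1.27 ± 0.30 for C1qc (SE) in the limma fit, each with an adjusted p of 0.323. A difference in response between genotypes was therefore not called. Of all genes, 0.022% were called for the interaction against 0 of the 7 complement genes, and at an unadjusted p under 0.05 the fit picked 4 of the 7 as positive and 1 as negative, beside 10.1% and 5.21% of all genes. Without untreated Ifnb+/+ replicate 2, the 3 C1q interactions had adjusted p between 0.0445 and 0.0451, in a fit that called 6.8% of all genes for the interaction.

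**Figure D2:**
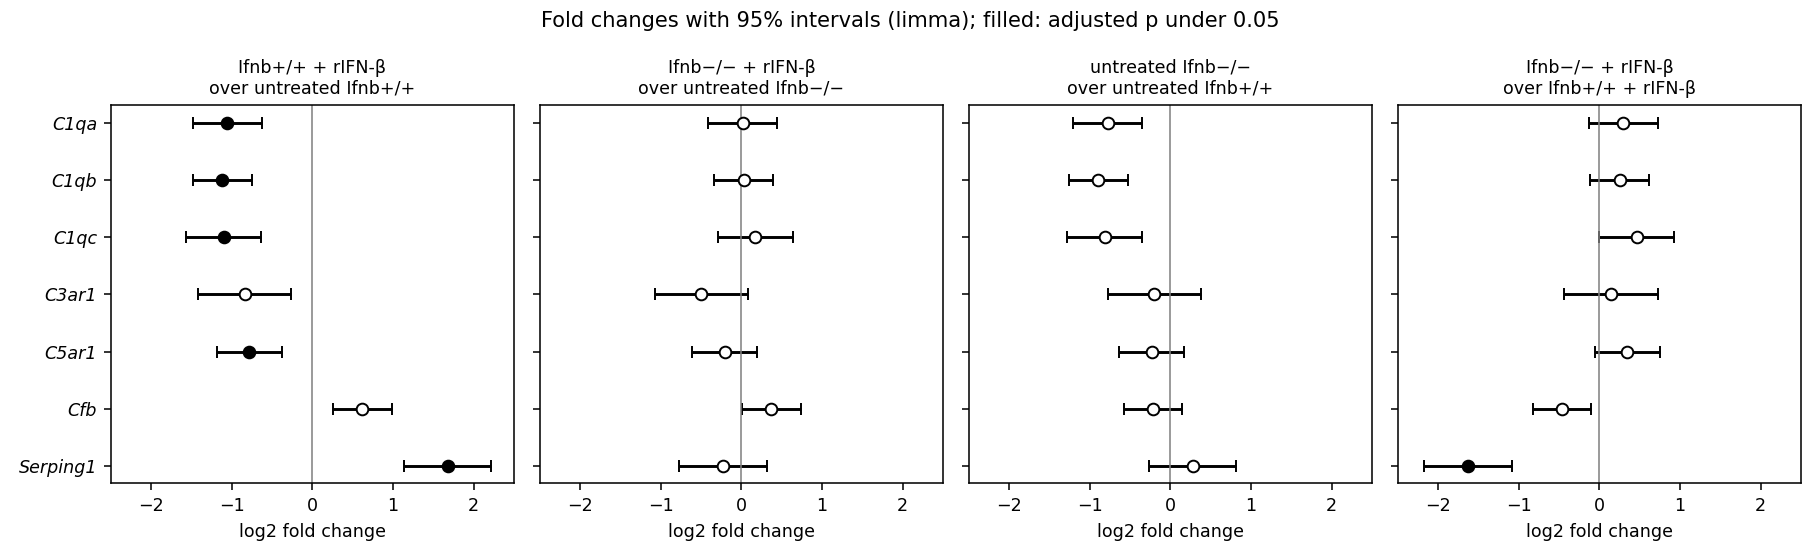
Log2 fold changes of the 7 complement genes in 4 comparisons (x axis), with 95% intervals from limma and filled circles for an adjusted p under 0.05. Filled circles are C1qa, C1qb, C1qc, C5ar1 and Serping1 for rIFN-β in Ifnb+/+ cultures, and Serping1 between the treated genotypes.

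Some microglial transcripts fell with rIFN-β in both genotypes. The C1q chains were called lower in Ifnb+/+ cultures and stayed uncalled, with values near 0, in Ifnb-/- cultures. The microglial markers Trem2 and Fcgr3 were likewise called lower in Ifnb+/+ cultures and uncalled in Ifnb-/- cultures, so this pattern was not particular to C1q. Of 19 microglial markers listed, 18 were measured. Tyrobp, Ctss and Mpeg1 averaged 8.96, 8.98 and 7.90 log2 over the 12 arrays, whereas the homeostatic markers P2ry12, Siglech and Cx3cr1 averaged only 2.83, 3.19 and 3.21. Their summed linear signal ranged over 1975 to 2269 in treated Ifnb-/- cultures, 2826 to 3134 in untreated Ifnb-/- cultures, 2088 to 2668 in treated Ifnb+/+ cultures and 3032 to 4767 in untreated Ifnb+/+ cultures. For the C1q chains the sums were 573 to 661, 575 to 609, 378 to 586 and 857 to 1334 in the same order of groups. With rIFN-β in Ifnb+/+ cultures, 6 of the 18 markers were called lower and 0 higher, where 1.36% and 1.78% of all genes were. The log2 fold changes of the 18 ran from -1.65 to 0.46, with a median of -0.46. Among those called, Cd68, Trem2 and Csf1r, the receptor on which microglia depend for survival, were 3.15-fold, 2.83-fold and 1.61-fold lower. With rIFN-β in Ifnb-/- cultures 2 of the 18 were called lower, Cd14 (-1.42) and Laptm5 (-0.83), and 0 higher, where 1.67% of all genes were called. The 18 values ran from -1.42 to 0.30, with a median of -0.36. Of the 6 markers called in Ifnb+/+ cultures, only Laptm5 was also called in Ifnb-/- cultures. The log2 fold changes of the others in Ifnb-/- cultures were 0.23 for Trem2, -0.09 for Fcgr3, -0.36 for Cd68, -0.51 for Tyrobp and -0.57 for Csf1r. Between untreated genotypes 1 of 18, the lipid receptor gene Trem2, was called lower in Ifnb-/- (log2 fold change -1.03), where 0.115% of all genes were called. The median of the 18 was -0.26. At an unadjusted p under 0.05 the limma fit picked 5 of the 18 as lower and 0 as higher. These 5 were Trem2, Cd68 (-0.77), Fcgr3 (-0.64), Laptm5 (-0.53) and Csf1r (-0.47). Of all genes, 12.8% were lower at that threshold. For the interaction Trem2 was likewise the 1 of 18 called (1.73, limma, adjusted p = 0.012), where 0.022% of all genes were. In a bulk culture, fewer microglia and less RNA per microglial cell cannot be told apart, and the part of the markers in the C1q result was not tested. Markers of other cells were called rarely. In no comparison was any of 9 astrocyte, 7 endothelial, 6 meningeal fibroblast or 3 oligodendrocyte markers called, with at most 2 of any of these 4 lists in one direction at an unadjusted p under 0.05 in the limma fit, and of 12 granule neuron markers only Gabra6 was called, higher in treated Ifnb-/- than in treated Ifnb+/+ cultures (log2 fold change 1.44, adjusted p = 0.0221). Granule neuron markers were also compared between untreated genotypes, where the C1q chains were lower in Ifnb-/- cultures. At an unadjusted p under 0.05 the limma fit picked 4 of the 12 as higher and 0 as lower. The share of all genes higher at that threshold was not counted, so this count has no baseline. The median log2 fold change was 0.17 over the 12 and -0.09 over all genes. These 4 were Neurod1 (0.65), Gabra6 (0.72), Pax6 (0.41) and Zic1 (0.31), with adjusted p from 0.139 to 0.208. Each was without overlap, as for 10.1% of all genes in that direction, and the lowest of the 12 values was that of Barhl1 (-0.31). The part of these markers in the C1q result was not tested.

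The C1q chains were also set against the markers as a difference of means. The marker mean includes genes near the bottom of the array's range, such as Gpr34 and P2ry12 (1.85 and 2.83 log2 over the 12 arrays). Such genes have little room to fall, and what the difference reflects was not tested. The mean log2 of the 3 chains minus the mean log2 of the 18 markers was 1.81, 1.97 and 1.84 in treated Ifnb-/- cultures, against 1.41, 1.42 and 1.46 in untreated Ifnb-/- cultures. It was 1.49, 1.53 and 1.14 in treated Ifnb+/+ cultures, against 2.49, 1.49 and 1.93 in untreated Ifnb+/+ cultures. Treated Ifnb-/- arrays lay above untreated ones throughout, in a comparison where 20.3% of all genes separated in that direction. The Ifnb+/+ groups overlapped, and their untreated arrays were widely spread.

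**Figure D3:**
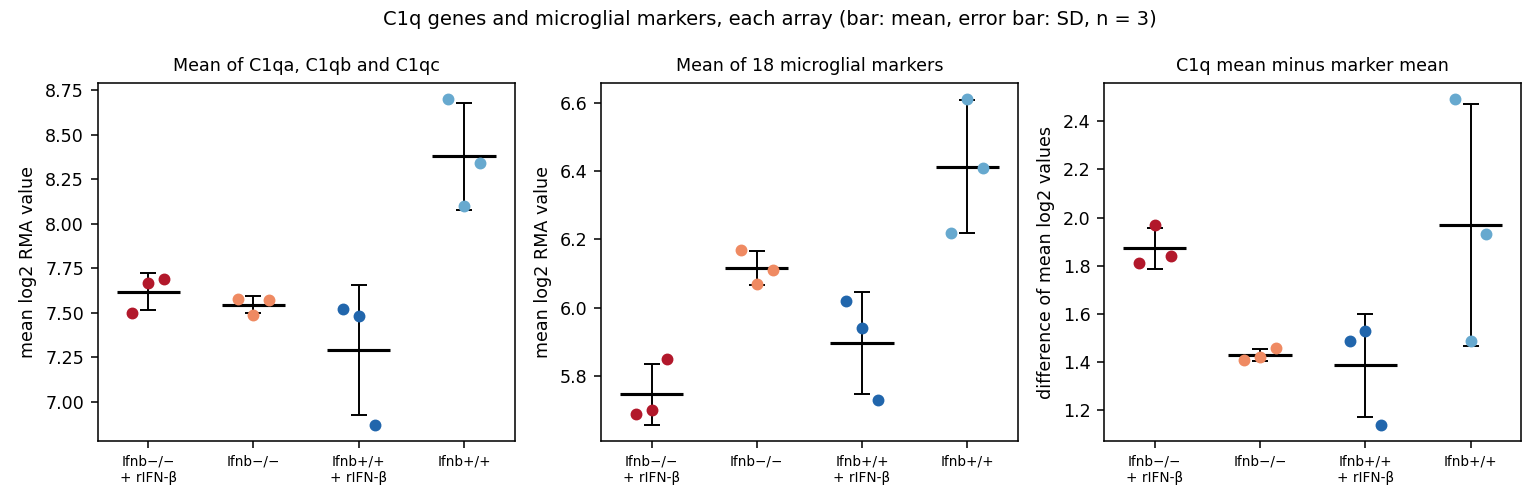
Mean log2 RMA signal of C1qa, C1qb and C1qc (left), of 18 microglial markers (middle) and their difference (right) for each array, by group on the x axis, with bars for means and error bars for SD (n = 3). The C1q mean lies between 8.10 and 8.70 in untreated Ifnb+/+ arrays and at or below 7.69 in all other arrays, and the group mean of the markers is lowest in treated Ifnb-/- cultures.

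The receptors for the anaphylatoxins, C3ar1 and C5ar1, are G protein-coupled receptors of myeloid cells, and C5ar1 was lower with rIFN-β in Ifnb+/+ cultures. C5ar1 measured 3.85, 3.16 and 3.57 log2 in treated Ifnb+/+ cultures, against 4.65, 4.02 and 4.25 in untreated ones. These groups did not overlap, as for 9.28% of all genes in that direction. Its log2 fold change was -0.78 ± 0.18 (SE, limma, adjusted p = 0.0417). Its values in Ifnb-/- cultures were 3.80, 3.83 and 3.98 with rIFN-β, against 4.02, 4.21 and 4.02 without, a log2 fold change of -0.21 (adjusted p = 0.614). The C5ar1 call held in 3 of the 12 fits that left out 1 array (adjusted p from 0.0122 to 0.149), and with 2 groups alone the adjusted p was 0.256. The calls lost included those without untreated Ifnb+/+ replicate 1 (0.115) or 3 (0.122) and without treated Ifnb+/+ replicate 2 (0.149) or 3 (0.11), and those without any untreated Ifnb-/- array or treated Ifnb-/- replicate 1 or 3 (0.0609 to 0.0725). Its mean level stood at the 35.9th percentile of gene means.

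C3ar1 measured 6.99, 6.45 and 6.16 log2 in treated Ifnb+/+ cultures, against 6.71, 7.91 and 7.49 in untreated ones, so the groups overlapped through untreated replicate 1. Its log2 fold change was -0.84 ± 0.27 (SE, limma, adjusted p = 0.117), and it was called without untreated replicate 1 (adjusted p = 0.0124) or treated replicate 1 (0.0406). Those fits called 2.34% and 5.94% of all genes in this comparison. C3ar1 in Ifnb-/- cultures was at 6.61, 6.62 and 6.79 with rIFN-β, against 7.31, 7.10 and 7.10 without. These groups did not overlap, as for 12.6% of all genes in that direction, but the log2 fold change of -0.50 did not pass (adjusted p = 0.412). It passed in a fit to the 2 Ifnb-/- groups alone (0.0295) and with array weights (0.0268), settings that called 7.01% and 21.8% of all genes. Between untreated genotypes the value was -0.20 for C3ar1 and -0.23 for C5ar1, Ifnb-/- minus Ifnb+/+, with overlap for both (adjusted p = 0.679 and 0.466).

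Other probe sets of the receptor genes did not always give the same size of difference. With rIFN-β in Ifnb+/+ cultures the 3 C3ar1 probe sets, from brightest to dimmest, gave log2 fold changes of -0.84, -0.48 and -0.65, and the 2 C5ar1 probe sets -0.78 and -1.37. With rIFN-β in Ifnb-/- cultures they gave -0.50, -0.26 and -0.39 for C3ar1 and -0.21 and -0.75 for C5ar1. The direction was the same in all 5 probe sets for rIFN-β in either genotype. Between untreated genotypes the third C3ar1 probe set gave -0.79 (limma over all probe sets, unadjusted p = 0.000575, adjusted p = 0.149), while the first and second gave -0.20 and -0.21. Of these 5 probe sets, tested over all single-gene probe sets, only the second of C5ar1 was called for rIFN-β in Ifnb+/+ cultures (adjusted p = 0.00816), whereas the first had an adjusted p of 0.0549. The 3 probe sets of C1qb gave -1.12, -1.13 and -1.05 for rIFN-β in Ifnb+/+ cultures, all called (adjusted p 0.00541 to 0.0175), although 2 of them are of a type that may also bind other transcripts.

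**Figure D4:**
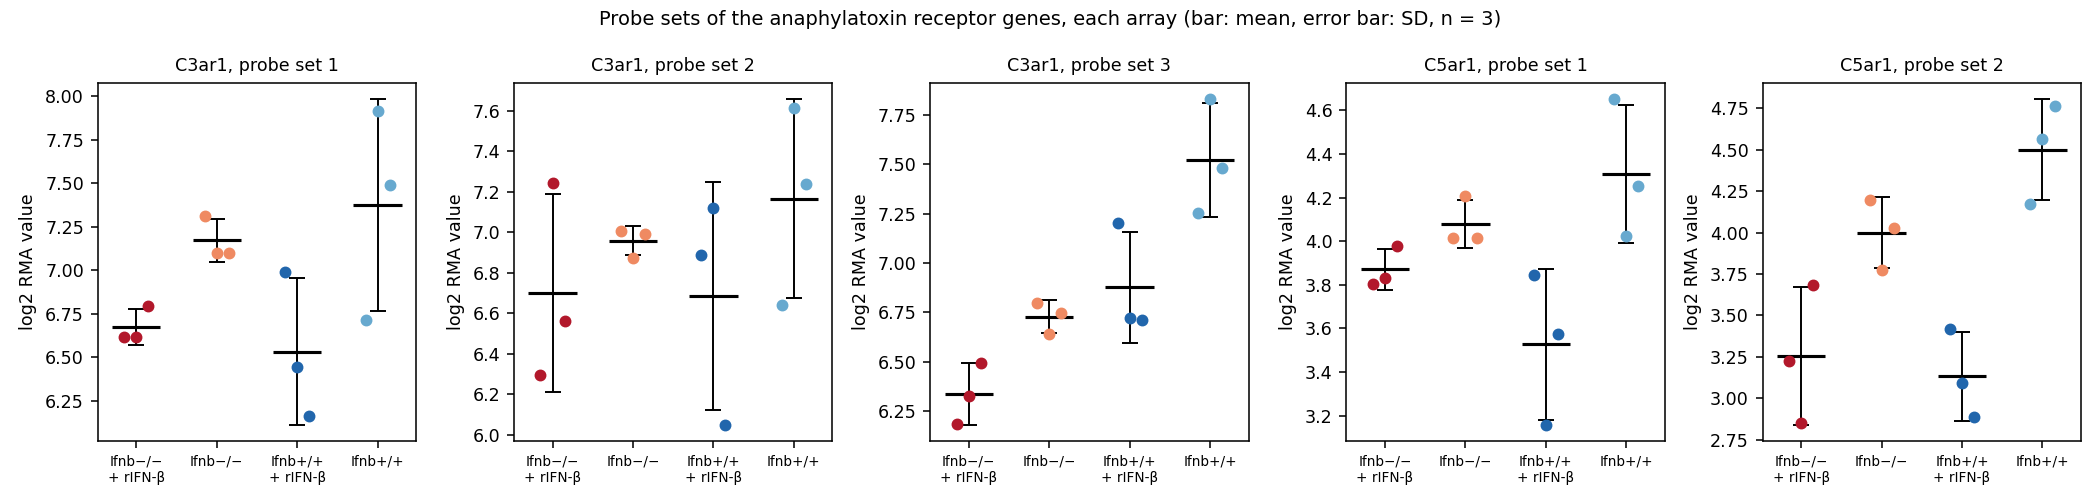
Log2 RMA signal (y axis, scales differ) of 3 probe sets for C3ar1 and 2 for C5ar1 in each array, by group on the x axis, numbered from the brightest, with bars for means and error bars for SD (n = 3). Untreated Ifnb+/+ arrays lie above untreated Ifnb-/- arrays without overlap only in the third C3ar1 probe set, a separation that 18.1% of all genes showed in that direction.

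Serping1, which encodes C1 inhibitor, had the largest change of the 7 genes over the comparisons made, a rise with rIFN-β in Ifnb+/+ cultures. Serping1 measured 8.36, 9.38 and 9.64 log2 in treated Ifnb+/+ cultures, against 7.32, 7.56 and 7.47 in untreated ones. All treated arrays stood above all untreated arrays, as 6.67% of genes did, and treated replicate 1 was the lowest of its group. The log2 fold change was 1.68 ± 0.25 (SE), or 3.2-fold (limma, adjusted p = 0.00292). The call held with any 1 array left out (adjusted p from 4.1e-06 to 0.0197), and the adjusted p was 0.0771 when the 2 groups were fitted alone.

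In Ifnb-/- cultures Serping1 measured 7.57, 7.34 and 7.58 log2 with rIFN-β, against 7.69, 7.70 and 7.78 without. Every treated array was below every untreated array, as for 12.6% of all genes. The log2 fold change of -0.23 was small and did not pass (limma, 95% interval -0.77 to 0.32, adjusted p = 0.685). Between the treated genotypes Serping1 was 3.09-fold lower in Ifnb-/- cultures, a log2 fold change of -1.63 ± 0.25 (SE, limma, adjusted p = 0.0449). It was the only 1 of the 7 genes called there, where 0.0605% of all genes were (0.055% lower), and all treated Ifnb-/- arrays lay below all treated Ifnb+/+ arrays, as for 3.47% of all genes. Cfb (log2 fold change -0.46, adjusted p = 0.76) was the only other of the 7 lower at an unadjusted p under 0.05, where 3.06% of all genes were. That call lies close to the threshold: it held in 2 of the 12 fits that left out 1 array, those without untreated Ifnb+/+ replicate 1 or treated Ifnb+/+ replicate 1, and the adjusted p spanned 0.000152 to 0.252. It was also lost with the 2 treated groups fitted alone (adjusted p = 0.552), with every probe set tested (0.091) and in a fit blocked on replicate number (0.0532). The interaction was -1.90 ± 0.35 (SE), which did not pass after adjustment over all genes (limma, adjusted p = 0.238). Without treated Ifnb+/+ replicate 1 its adjusted p was 0.000883, and without untreated Ifnb+/+ replicate 2 it was 0.0445, in fits that called 0.335% and 6.8% of all genes. In untreated cultures the Serping1 log2 fold change was 0.27, Ifnb-/- over Ifnb+/+ (adjusted p = 0.523), without overlap, which 10.1% of genes showed in that direction. Cxcl10 and Ifit1, in contrast to Serping1, were raised in both genotypes, and their interaction values were -0.35 and -0.03 (adjusted p = 0.655 and 0.977). The summed linear signal of the 9 astrocyte markers, cells that also make C1 inhibitor, ranged over 4741 to 13425 in treated Ifnb-/-, 5009 to 5412 in untreated Ifnb-/-, 4353 to 10356 in treated Ifnb+/+ and 4656 to 5271 in untreated Ifnb+/+ cultures, and its part in the Serping1 result was not tested.

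Cfb, the protease subunit of the alternative pathway convertase, was dim, at the 25.8th percentile of gene means. It measured 3.22, 3.74 and 3.98 log2 in treated Ifnb+/+ cultures, against 3.06, 2.98 and 3.05 in untreated ones. The Ifnb-/- cultures gave 3.25, 3.21 and 3.09 with rIFN-β, against 3.01, 2.72 and 2.72 without. Treated arrays lay above untreated arrays in both genotypes, by log2 fold changes of 0.62 ± 0.17 in Ifnb+/+ and 0.37 ± 0.17 in Ifnb-/- cultures (SE), neither of which passed (limma, adjusted p = 0.0732 and 0.336). Of all genes, 6.67% separated in the higher direction in Ifnb+/+ cultures and 20.3% in Ifnb-/- cultures. Without treated Ifnb+/+ replicate 1, the lowest of its group, the Ifnb+/+ value was called (adjusted p = 0.00347), as was the difference between treated genotypes (Ifnb-/- over Ifnb+/+, log2 fold change -0.68, adjusted p = 0.0331). That fit called 5.94% of all genes for rIFN-β in Ifnb+/+ cultures and 1.12% between treated genotypes.

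The wider complement system was examined through 50 further genes, of which 40 were measured. In each comparison at most 1 of the 40 was called, a share of the list near that of all genes (3.14% for rIFN-β in Ifnb+/+ and 1.67% in Ifnb-/- cultures), and the median log2 fold change of the 40 stayed within -0.12 and 0.10, against -0.09 and 0.11 for all genes over the same comparisons. With rIFN-β in Ifnb+/+ cultures 1 of 40 was called lower, the integrin chain gene Itgb2 (CD18, the common chain of complement receptors 3 and 4). It measured 6.82, 6.78 and 6.35 log2 in treated against 7.63, 7.69 and 7.75 in untreated cultures, with a log2 fold change of -1.04 (limma, adjusted p = 0.00125). Its value with rIFN-β in Ifnb-/- cultures was -0.52 (adjusted p = 0.0921), and that between untreated genotypes -0.62 (adjusted p = 0.123). With rIFN-β in Ifnb-/- cultures 1 of 40 was called higher, the C4b-binding protein gene C4bp. It measured 3.53, 3.38 and 3.59 in treated against 2.85, 2.62 and 2.95 in untreated cultures, with a log2 fold change of 0.69 (limma, adjusted p = 0.0344). Its mean in treated Ifnb-/- cultures, 3.50, was near that in untreated Ifnb+/+ cultures, 3.45. Between untreated genotypes C4bp gave -0.65, Ifnb-/- over Ifnb+/+ (limma, adjusted p = 0.123). C4bp is near the floor of the array's range, and no gene of the list was called without any 1 untreated Ifnb-/- array, treated Ifnb-/- replicate 1 or 3, or untreated Ifnb+/+ replicate 3.

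The early proteases of the classical pathway, C1ra, C1s1 and C2, were all nearer to a call than most of the list. With rIFN-β in Ifnb+/+ cultures they gave log2 fold changes of 0.73, 0.44 and 0.72 (limma, adjusted p = 0.08, 0.118 and 0.0735). None of them overlapped between groups, as for 6.67% of all genes in that direction. In Ifnb-/- cultures C1ra and C1s1 gave -0.75 and -0.38 (adjusted p = 0.0951 and 0.232) and C2 gave 0.18 (adjusted p = 0.687). Between the treated genotypes, Ifnb-/- over Ifnb+/+, the values were -0.82, -0.62 and -0.75 (adjusted p = 0.302, 0.238 and 0.349), and Masp1, the lectin pathway protease gene, gave -0.68 (adjusted p = 0.448). The untreated genotypes differed, Ifnb-/- over Ifnb+/+, by 0.65 for C1ra, 0.20 for C1s1 and -0.20 for C2, none of which passed.

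Among the phagocyte receptors, Itgax (CD11c) gave -1.02 between untreated genotypes (limma, adjusted p = 0.166), -1.03 with rIFN-β in Ifnb+/+ cultures (adjusted p = 0.0837) and 0.75 with rIFN-β in Ifnb-/- cultures (adjusted p = 0.262). Itgam (CD11b), which pairs with the same Itgb2 chain, gave -0.76 with rIFN-β in Ifnb-/- cultures (adjusted p = 0.231). Csmd3, of a family of neuronal complement regulators, gave 0.44 between untreated genotypes (adjusted p = 0.156). The 9 lectin pathway genes and 6 terminal pathway genes measured had 0 calls in any comparison at the adjusted threshold, and at an unadjusted p under 0.05 the limma fit picked 0 of the terminal genes and at most 1 lectin gene in a comparison.

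**Figure D5:**
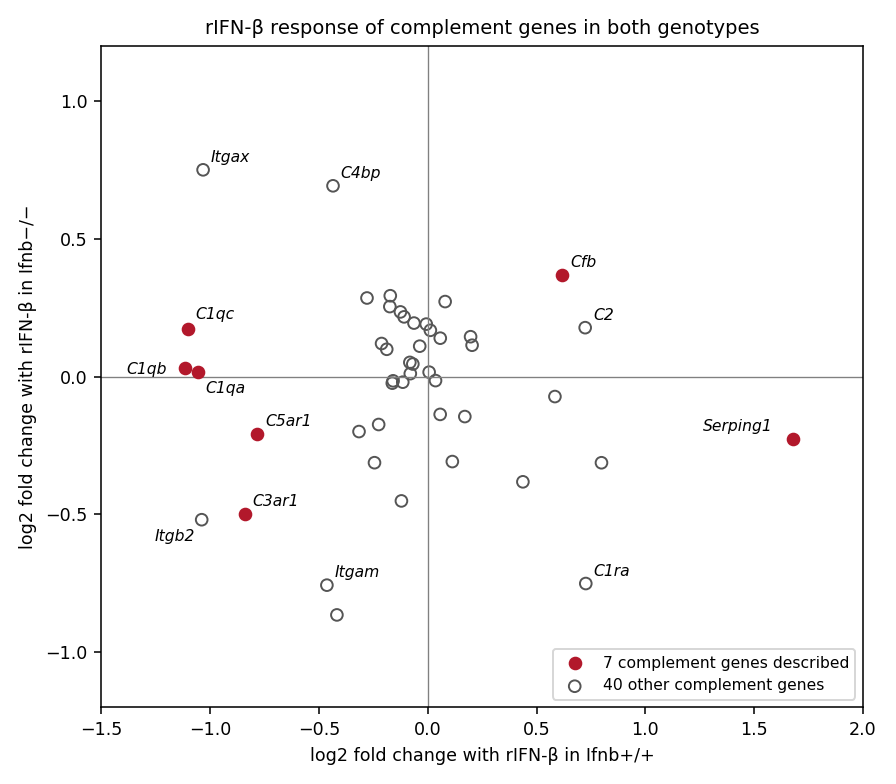
Log2 fold change with rIFN-β in Ifnb+/+ cultures (x axis) against that in Ifnb-/- cultures (y axis) for 7 complement genes (filled) and 40 other complement genes (open). The C1q genes lie at -1.06 to -1.12 on the x axis and 0.02 to 0.17 on the y axis, and Serping1 at 1.68 and -0.23.

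The profile of each gene over the 12 arrays, centred on its own mean, was compared with that of every other gene by the root mean square (RMS) difference in log2 signal, as a description over arrays that share their groups. The nearest profile to C1qa was that of C1qb (RMS 0.088), followed by Pla2g15, a lysosomal phospholipase gene (0.151), and Prickle1 (0.156), with C1qc sixth (0.162). C3ar1 was nearest to Tyrobp, the microglial adaptor gene (0.169), then Nceh1 (0.176) and Rab7b (0.195). Serping1 had no profile closer than 0.318, that of the interferon-induced Epsti1, followed by Tnfsf10 (0.321), which encodes the death ligand TRAIL, and Gm5817 (0.333). C5ar1 was nearest to Slc5a6 (0.115), Nrarp (0.145) and Rabif (0.147), and Cfb to Sap30 (0.117), Tor1aip2 (0.121) and Whamm (0.126). The SD over the 12 arrays was 0.78 log2 for Serping1, 0.47 for C1qa and 0.37 for both Cfb and C5ar1.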

How the data were processed

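RNA from CGN cultures was measured on 12 Affymetrix mouse expression arrays, with 3 arrays in each of 4 groups taken from the sample labels. The deposited values are log2 signals that the authors quantile-normalized and summarised with RMA. The build behind the probe annotation is not given in the sources used here. Arrays carry no depth, and their number limits the precision.

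Of 45037 probe sets, 34945 were annotated to 1 gene, 932 to several and 9160 to none. The brightest single-gene probe set stood for each of 18193 genes. Group means were fitted over all 12 arrays with limma 3.58.1 in R 4.3.3 (8 residual and 4.07 prior degrees of freedom), and p-values were two-sided and adjusted by Benjamini-Hochberg over all genes, with calls at an adjusted p under 0.05. Fold changes are on the log2 scale. The fit was tested on simulated data. Alternatives covered other probe set rules, scaling, weighting, a filter at a mean of 5, 2-group fits, a replicate block, leaving out each array, and the methods' t-test at p under 0.05 and 1.5-fold.

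Genes were named by a fixed rule. It took every listed complement gene, wider complement genes called or with the 4 smallest p-values in a comparison, and the 3 nearest profiles. The members and lists were chosen with earlier results of these data known. Some annotated genes of the wider list had no single-gene probe set (10 of 50) and were not analysed here. Promoters are from RefSeq (GRCm38.p6), with 5 of the 8 genes matched. Some items are not reported here.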

Additional observations from a re-analysis of the deposited data

Results flagged for a closer look

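For 5 of the 47 complement genes measured (10.6%) the rIFN-β arrays moved in opposite directions in the 2 genotypes, with all treated arrays above all untreated arrays in one genotype and all below in the other, a pattern shown by 0.781% of all genes. These genes were chosen with earlier results known, so the shares are a description. The interaction, the log2 fold change in Ifnb-/- minus that in Ifnb+/+ cultures, was -1.90 for Serping1 (limma, adjusted p = 0.238), -1.48 for C1ra (adjusted p = 0.273), -0.82 for C1s1 (adjusted p = 0.323), 1.13 for C4bp (adjusted p = 0.211) and 1.78 for Itgax (adjusted p = 0.323). None passed the adjusted threshold, so a difference between genotypes was not called for any of them. Serping1, C1ra and C1s1 were lower with rIFN-β in Ifnb-/- cultures and higher with it in Ifnb+/+ cultures. C4bp and Itgax were higher with rIFN-β in Ifnb-/- cultures and lower with it in Ifnb+/+ cultures. Among treated Ifnb-/- arrays, replicate 2 had the highest Itgax signal, 5.32 log2 against 3.83 and 4.06, and treated Ifnb+/+ replicate 1 had the lowest Serping1 signal of its group, 8.36 against 9.38 and 9.64.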

How the results depend on the processing

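Precision is limited by 3 arrays a group, by dim probe sets such as those of Cfb, C5ar1 and C4bp, and by uneven spread, since the median SD of a gene was 0.154 in treated Ifnb-/-, 0.0872 in untreated Ifnb-/-, 0.171 in treated Ifnb+/+ and 0.201 in untreated Ifnb+/+ arrays. Of the fold changes of the 7 genes under other settings, 699 kept their direction and side of the threshold, 37 lost a call, 30 gained one and 8 turned direction, and the cause was not tested.

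Counts called among the 7 genes depended on the setting. For rIFN-β in Ifnb+/+ cultures 5 were called, 0 with the 2 groups alone and 0 by the methods' t-test after Benjamini-Hochberg, and 2 to 7 with 1 array left out (2 without untreated Ifnb+/+ replicate 3, 3 without treated Ifnb+/+ replicate 3). For rIFN-β in Ifnb-/- cultures 0 were called, 2 with array weights and 1 with the 2 groups alone, and 0 to 0 with 1 array left out. Between untreated genotypes 0 were called, 4 with array weights and 3 by the methods' t-test at 1.5-fold, and 0 to 3 with 1 array left out (3 without untreated Ifnb+/+ replicate 2, 1 without treated Ifnb+/+ replicate 3). Between treated genotypes 1 was called, 0 with every probe set on its own, 0 with the 2 groups alone and 0 by the t-test after Benjamini-Hochberg, and 0 to 2 with 1 array left out. For the interaction 0 were called, 5 with array weights, and 0 to 4 with 1 array left out (4 without untreated Ifnb+/+ replicate 2, 1 without treated Ifnb+/+ replicate 1). Some settings called many genes overall. Array weights, from 0.249 to 7.24, called 43.7% of all genes between untreated genotypes, 18.1% and 21.8% for rIFN-β in Ifnb+/+ and Ifnb-/- cultures, 1.15% between treated genotypes and 22.6% for the interaction. Leaving out untreated Ifnb+/+ replicate 2 called 21.1% between untreated genotypes, 16% for rIFN-β in Ifnb+/+ cultures and 6.8% for the interaction, and the t-test at 1.5-fold called 2.25% between untreated genotypes.

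Among the 40 wider genes, rIFN-β in Ifnb+/+ cultures gave 1 call, 7 with array weights, 2 with the 2 groups alone, 2 by the t-test at 1.5-fold and 0 after Benjamini-Hochberg, and 1 to 5 with 1 array left out. In Ifnb-/- cultures it gave 1, then 0 with a mean of at least 5, 0 with quantile normalization once more, 0 with median centring, 9 with array weights, 4 with the 2 groups alone, 3 by the t-test at 1.5-fold and 0 after Benjamini-Hochberg, and 0 to 2 with 1 array left out. Between untreated genotypes it was 0, 19 with array weights, 1 with the 2 groups alone and 5 by the t-test at 1.5-fold, and 0 to 7 with 1 array left out (7 without untreated Ifnb+/+ replicate 2). Between treated genotypes it was 0, 3 with array weights and 2 by the t-test at 1.5-fold, and 0 to 3 with 1 array left out. The interaction gave 0, 11 with array weights, and 0 to 4 with 1 array left out.

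Directions turned only for values near 0. C3ar1 between untreated genotypes was 0.0709 without untreated Ifnb+/+ replicate 2 (range -0.53 to 0.0709 with 1 array left out). For rIFN-β in Ifnb-/- cultures, C1qa was -0.0152 with array weights and -0.0574 to 0.0897 with 1 array left out, below 0 without treated Ifnb-/- replicate 3. C1qb was -0.0298 with the mean of its probe sets and -0.0313 to 0.088 with 1 array left out, below 0 without untreated Ifnb-/- replicate 2 or treated Ifnb-/- replicate 3. C3ar1 between treated genotypes was -0.13 with the mean of its probe sets and -0.0422 to 0.37 with 1 array left out, below 0 without treated Ifnb+/+ replicate 3.

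The labels do not say whether same-numbered arrays of different groups belong together. Deviations of same-numbered arrays correlated at 0.051 to 0.073 for treated and untreated Ifnb-/-, 0.065 to 0.298 for treated and untreated Ifnb+/+, -0.017 to 0.128 for the untreated genotypes and -0.501 to 0.432 for the treated genotypes. For differently numbered arrays the ranges were -0.1 to 0.045, -0.297 to 0.182, -0.144 to 0.092 and -0.585 to 0.566 in the same order. The block raised the share of all genes called for rIFN-β in Ifnb+/+ cultures from 3.14% to 4.66%. With the replicate number as a block, calls among the 7 genes were 5 for rIFN-β in Ifnb+/+ cultures and 0 in the other comparisons, so Serping1 between treated genotypes was not called (adjusted p = 0.0532), and 4 of the 40 wider genes were called for rIFN-β in Ifnb+/+ cultures.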
